A study of Mus musculus with 12 samples.

Results

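Of 30702 genes with a transcript cluster of their own on the array, 620 read outside the range of both the control testis and the control ovary in fetal XY gonads made to express FOXL2. They were found by setting the mean of 4 XY FOXL2+ arrays against the average of the XY control and XX control means. A gene was kept where all 4 XY FOXL2+ arrays lay above, or all lay below, all 8 control arrays. By this rule 338 genes were above both control groups and 282 were below both. These are 1.1% and 0.919% of all genes, and 2.02% together. The rule uses the same values as the contrast, so the p-values below come from the fit over all clusters and lend the choice of genes no support.

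The arrays read RNA of fetal mouse gonads at 14.5 dpc (days post coitum), in 3 groups of 4 arrays. XY control and XX control embryos were Rosa26+/+ and Sf1-Cre+/Tg. XY FOXL2+ embryos carried Sf1-cre+/Tg together with 1 Rosa26-CAG-LSL-Foxl2 allele (+/f). All were on a mixed 129Sv and C57Bl/6J background, and all thus carried the Cre, which acts in cells that express Sf1 (Nr5a1), the somatic cells of the early gonad. Each array held 1 pair of gonads freed of the mesonephros, as 1 biological replicate. No control group carried the Rosa26 allele, so FOXL2 and the presence of that allele cannot be told apart. All values below are signals on a log2 scale or differences of such signals, and a fold is 2 raised to the difference.

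FOXL2 is a forkhead transcription factor of granulosa cells, the supporting cells of the ovary. In the mouse ovary it acts against the testis programme, whose supporting cells are Sertoli cells and whose steroid-producing cells are Leydig cells. Both supporting lineages arise from Sf1-expressing precursors of the gonadal ridge. The gonad also holds interstitial cells, vessels, macrophages and germ cells. A gene moving only from a testis level towards an ovary level would read between the controls or level with the XX controls, and the rule leaves such genes out.

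Foxl2 itself was checked first. It read 5.07, 5.55, 5.44 and 5.33 in XY controls, 7.67, 8.62, 7.18 and 6.72 in XY FOXL2+, and 8.08, 7.30, 7.14 and 7.39 in XX controls. All XY FOXL2+ arrays were above the XY controls and overlapped the XX controls, so Foxl2 is not among the 620 genes. It was 4.59-fold above XY controls (limma, adjusted p = 0.00122) and 1.05-fold above XX controls (adjusted p = 0.943). Xist, and Kdm5d, Uty and Eif2s3y from the Y chromosome, followed the labelled sex on all 12 arrays. The gonadal factors Nr5a1 and Gata4 read between 11.60 and 13.47 on every array, against array medians of 6.149 to 6.296. The XY FOXL2+ arrays were not alike. On the first principal component (51.5% of the variance), where XY controls lay at -66.3 to -59.9 and XX controls at 55.8 to 61.6, replicates 1 and 2 lay at 20.3 and 39.1 and replicates 3 and 4 at -21.3 and -23.1. Replicate 1 stood apart on the second principal component, at -76.9 against -22.1 to 22.6, and replicates 3 and 4 on the third, at -49.7 and -44.2 against -12.7 to 35.6. Fewer cells of a type and less RNA per cell cannot be told apart in such bulk samples.

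Most of the 620 genes lay only a little outside the controls. The median gap between the nearest XY FOXL2+ array and the nearest control array was 0.049 for the genes above and 0.067 for those below. The median difference from the nearer control mean was 0.29 above and 0.28 below. It reached 2-fold for 39 genes above (0.127% of all genes) and 6 genes below (0.0195%). Just inside the rule were Antxr2, with a gap of 0.001, and Maf, with a gap of 0.002. Just outside it were Ezr, whose lowest XY FOXL2+ array read 10.58 beside an XX control at 10.58, and Glb1l3, whose highest XY FOXL2+ array read 6.52 beside an XY control at 6.52.

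The test against XY controls called 8.09% of all genes in either direction and that against XX controls 6.52%. Of the 338 genes above both controls, 132 passed both of these pairwise tests (0.43% of all genes). Of the 282 genes below, 99 did (0.322%). Over all genes 144 (0.469%) passed both tests upward and 104 (0.339%) downward. The contrast against the average of both controls called 334 genes higher (1.09%) and 497 lower (1.62%), and 182 (0.593%) and 174 (0.567%) of these lay outside all controls on that side. Of the called genes that did not, 64 higher and 227 lower genes passed against the XY controls and not the XX controls. A further 73 higher and 82 lower genes passed against the XX controls and not the XY controls.

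The genes above and below sat differently between the sexes. Of the 338 genes above, 300 were not called different between XX and XY controls, 26 were higher in XX and 12 lower. Of the 282 genes below, 202 were not called, 72 were lower in XX and 8 higher. The XX mean was the nearer control for 195 of the 282 genes below and for 159 of the 338 above. The sexes were called different for 21.2% of all genes. The median array signal was 9.0 for the genes below, against 6.77 for the genes above and 6.79 for all genes. Predicted genes and small RNAs made up 57 of the genes above and 16 of those below. These are 0.546% and 0.153% of the 10435 such genes measured, lower shares than the 1.1% and 0.919% of all genes.

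**Figure D1:**
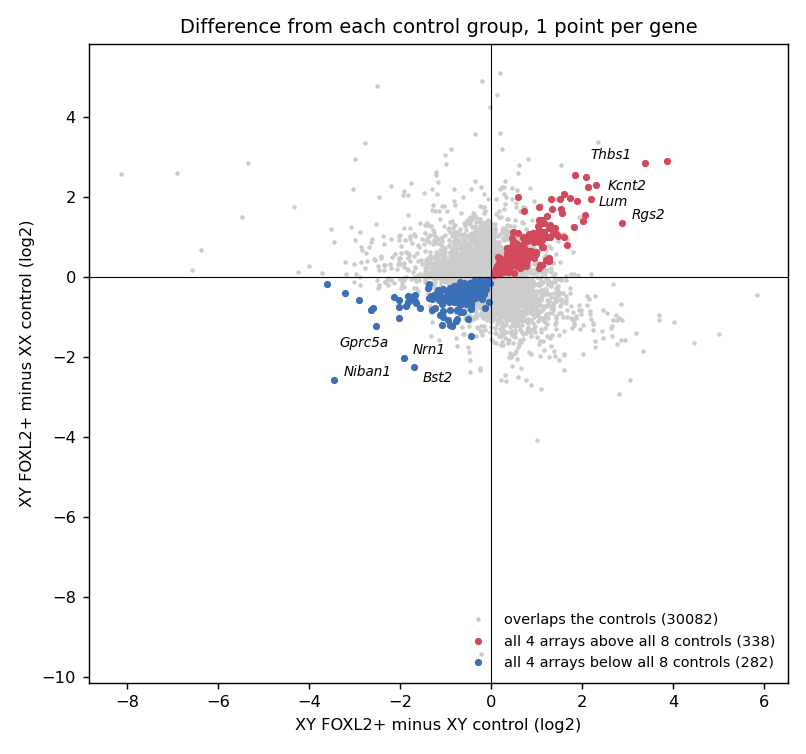
Difference of the XY FOXL2+ mean from the XY control mean (x axis, log2) and from the XX control mean (y axis, log2), with 1 point for each of 30702 genes. The 338 genes above all 8 controls (red) lie at the upper right and the 282 genes below (blue) at the lower left, with Thbs1 far to the upper right and Niban1 far to the lower left.

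Among the genes with a settled name, those farthest above both controls were Thbs1, Kcnt2, Lum, Slc26a7, Abca9, Nrp2, Slitrk6, Dpt, Tnc, Nupr1, Postn, Cd55, Grik2, Gbp2 and Rgs2. These 15 were ranked by their difference from the nearer control mean, with predicted genes and small RNAs left out of naming. Each passed both pairwise tests. The sexes were called different for 2 of them, Tnc and Rgs2.

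Thbs1 (thrombospondin 1), a secreted matrix protein that activates latent TGF-beta and restrains vessel growth, differed most of these 15. Thbs1 read 9.99, 10.70, 10.17 and 9.89 in XY controls, 13.39, 12.78, 14.20 and 13.88 in XY FOXL2+, and 11.34, 10.42, 10.34 and 10.66 in XX controls. All XY FOXL2+ arrays were above all controls by at least 1.44. Thbs1 rose 10.4-fold against XY controls (limma, adjusted p = 1.74e-05) and 7.33-fold against XX controls (adjusted p = 0.000227), while the sexes were not called different (adjusted p = 0.319).

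Other proteins of the extracellular matrix follow. Lum (lumican), a small leucine-rich proteoglycan that binds collagen fibrils, read 10.26, 10.70, 10.05 and 10.01 in XY controls, 12.31, 12.13, 12.55 and 12.50 in XY FOXL2+, and 10.37, 10.20, 9.5 and 10.36 in XX controls. The XY FOXL2+ arrays of Lum were high and close together, and none overlapped a control. Lum rose 4.34-fold against XY controls (adjusted p = 3.21e-05) and 4.81-fold against XX controls (adjusted p = 9.88e-05).

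Tnc (tenascin C), a matrix glycoprotein of developing connective tissue, read 9.15, 9.40, 8.84 and 9.03 in XY controls, 10.66, 10.57, 10.90 and 10.65 in XY FOXL2+, and 8.62, 8.74, 8.42 and 8.63 in XX controls. The groups did not overlap, with XX controls lowest. Tnc rose 3.01-fold against XY controls (adjusted p = 6.78e-06) and 4.27-fold against XX controls (adjusted p = 4.34e-06). Postn (periostin), a matricellular protein, read 10.34, 10.80, 9.79 and 9.96 in XY controls, 10.24 to 11.06 in XX controls, and 12.29, 12.15, 12.49 and 12.21 in XY FOXL2+. Its XY FOXL2+ arrays were again high and close together. Postn rose 4.18-fold and 2.93-fold against XY and XX controls (adjusted p = 6.91e-05 and 0.00135).

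Dpt (dermatopontin), which binds decorin and collagen, differed within the XY FOXL2+ group. It read 5.88, 6.19, 6.38 and 6.36 in XY controls, 7.14, 7.20, 8.67 and 8.74 in XY FOXL2+, and 6.14, 5.83, 5.77 and 6.11 in XX controls. Replicates 3 and 4 were high, and replicates 1 and 2 lay between them and the controls. Dpt rose 3.33-fold against XY controls (adjusted p = 0.00594) and 3.94-fold against XX controls (adjusted p = 0.00385). Its control signals lie below the array medians or close to them, where a fold can be compressed.

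Lum has neighbours of its own kind. The small leucine-rich proteoglycan genes Dcn, Lum and Kera lie at places 1, 2 and 4 of their stretch when the measured genes are put in RefSeq order. Dcn (decorin), which also binds collagen, read 14.52, 14.63, 14.55 and 14.62 in XY controls, 14.89, 14.89, 15.33 and 15.54 in XY FOXL2+, and 13.40, 13.06, 12.81 and 13.33 in XX controls. Its groups did not overlap, with XX controls far lower. Dcn rose 1.5-fold against XY controls (adjusted p = 0.0404) and 4.05-fold against XX controls (adjusted p = 3.96e-05). Kera (keratocan), named after its values were seen, read 6.39 to 6.84 in XY FOXL2+, 5.38 to 5.98 in XY controls and 5.53 to 5.78 in XX controls, a 2.06-fold and a 1.96-fold difference (adjusted p = 0.00046 and 0.00155). In that order 231 genes could be placed that were outside all controls and passed both pairwise tests. Among them Dcn and Lum formed 1 of 6 pairs with no other measured gene between, though unmeasured genes may lie there. All 6 pairs lay on the same side, and the others were Nwd2 with Gm3687, Gbp8 with Gbp9, Prr15 with Wipf3, Elf4 with Aifm1 and Klhl4 with Gm14895. In all 30697 measured genes were placed, and no number of pairs for other sets of genes was worked out. Whether probes of neighbours such as Gbp8 and Gbp9 read each other's transcript was not checked.

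Among channels, transporters and receptors, Kcnt2, a subunit of sodium-activated potassium channels, read 7.39, 7.76, 7.39 and 7.27 in XY controls, 9.10, 9.03, 10.61 and 10.28 in XY FOXL2+, and 7.51, 7.39, 7.34 and 7.53 in XX controls. All XY FOXL2+ arrays were above all controls, and the control groups read alike. Kcnt2 rose 4.95-fold against XY controls (adjusted p = 0.000371) and 4.98-fold against XX controls (adjusted p = 0.000852). Slc26a7, an anion exchanger, read 9.56, 9.42, 9.44 and 9.12 in XY controls, 10.74, 10.55, 12.34 and 12.23 in XY FOXL2+, and 9.54, 8.78, 8.51 and 9.04 in XX controls. Replicates 3 and 4 were again the highest. Slc26a7 rose 4.24-fold and 5.65-fold against XY and XX controls (adjusted p = 0.00425 and 0.00213).

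Nrp2 (neuropilin 2), a co-receptor of class 3 semaphorins and VEGF, read 8.73, 9.06, 8.30 and 8.33 in XY controls, 10.63, 10.25, 10.54 and 10.52 in XY FOXL2+, and 8.81, 8.63, 8.34 and 8.56 in XX controls. The control groups read alike and all 4 XY FOXL2+ arrays were higher. Nrp2 rose 3.68-fold and 3.73-fold (adjusted p = 1.61e-05 and 7.91e-05). Abca9, an ABC transporter of the A subfamily, rose 4.58-fold and 3.92-fold against XY and XX controls (adjusted p = 1.97e-05 and 0.000188). Slitrk6, a leucine-rich transmembrane protein of neurons, rose 3.58-fold and 5.94-fold (adjusted p = 0.00187 and 0.000397). Grik2, a kainate receptor subunit, rose 2.82-fold and 3.89-fold (adjusted p = 0.00615 and 0.00181), and its XY FOXL2+ arrays spread from 7.47 to 9.12.

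Cd55 (decay-accelerating factor), a membrane protein that breaks down complement convertases, read 11.05, 11.16, 10.76 and 11.14 in XY controls, 12.34, 11.79, 12.98 and 13.07 in XY FOXL2+, and 10.88, 10.92, 10.59 and 10.97 in XX controls. All XY FOXL2+ arrays were above all controls, with replicate 2 the nearest. Cd55 rose 2.86-fold and 3.26-fold (adjusted p = 0.00147 and 0.0012). Its copy Cd55b, named after its values were seen, rose 2.05-fold and 2.25-fold (adjusted p = 0.00428 and 0.00297), and probes of such close copies can read each other's transcript.

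Inside the cell, Rgs2, which shortens G protein signals, read 10.49, 10.59, 10.50 and 10.33 in XY controls, 13.38, 12.51, 13.85 and 13.70 in XY FOXL2+, and 12.12, 11.89, 11.90 and 12.08 in XX controls. The groups formed 3 separate levels with XY FOXL2+ on top. Rgs2 rose 7.37-fold against XY controls and 2.57-fold against XX controls (adjusted p = 5.9e-06 and 0.00366), and XX exceeded XY by 1.52 (adjusted p = 0.000362). Gbp2, an interferon-inducible GTPase, rose 4.07-fold and 2.64-fold (adjusted p = 0.000129 and 0.0034). Nupr1, a small nuclear protein induced by stress, read 7.52, 6.79, 8.74 and 9.35 in XY FOXL2+ against 6.35 to 6.71 over all controls. Its difference from the average of both controls was 1.58 (adjusted p = 0.0332), and the adjusted p was 0.0521 to 0.0979 without any 1 of 10 arrays in turn.

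**Figure D2:**
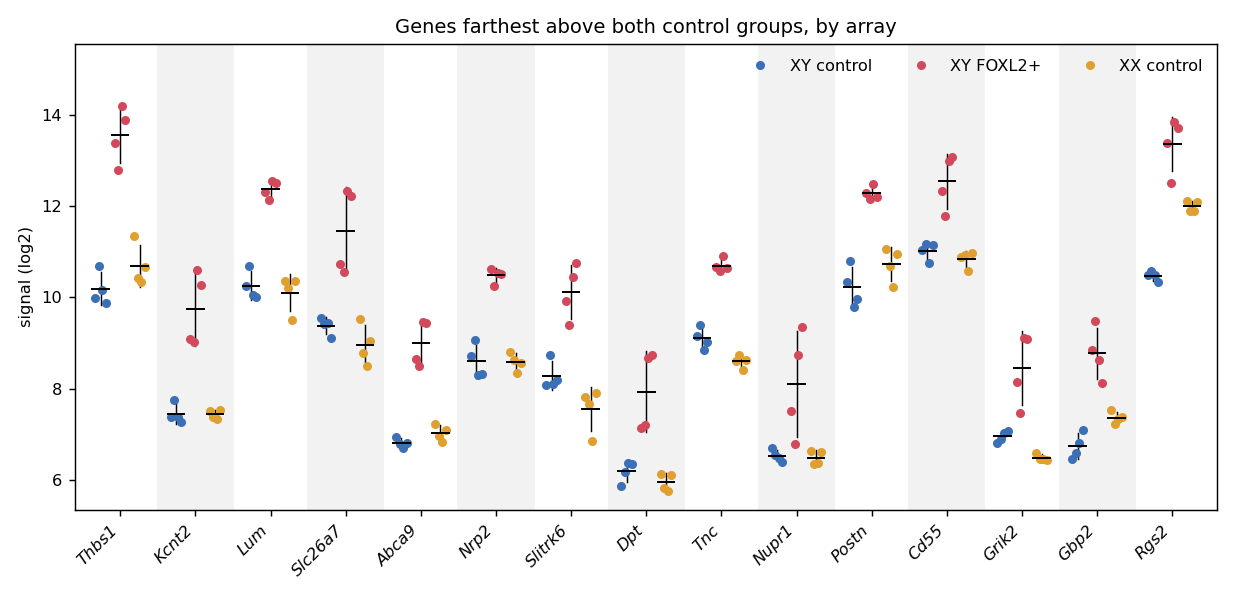
Signal (log2, y axis) on each of the 12 arrays for the 15 named genes farthest above both control groups (x axis, in order of the difference from the nearer control mean). Points are arrays, horizontal bars group means and vertical bars 1 SD (n = 4), and every red XY FOXL2+ point lies above every control point of its gene.

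The 15 named genes farthest below both controls were Niban1, Nrn1, Bst2, Gprc5a, Sema5b, Aldh1a7, Hs6st1, Pmis2, Slc12a7, Cst13, Hs3st3b1, Cdon, Lipg, Trim62 and Ret. Each passed both pairwise tests. Niban1, a protein of the cellular stress response, differed most. It read 11.42, 11.29, 11.54 and 11.07 in XY controls, 8.23, 8.99, 7.15 and 7.15 in XY FOXL2+, and 10.40, 10.52, 10.47 and 10.39 in XX controls. Every XY FOXL2+ array was far below every control, lowest in replicates 3 and 4. Niban1 fell 10.9-fold against XY controls (limma, adjusted p = 2.83e-05) and 5.93-fold against XX controls (adjusted p = 0.000798).

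Membrane proteins and receptors stood next. Nrn1 (neuritin), a membrane-anchored protein of neurite growth, read 10.42, 10.76, 11.27 and 11.07 in XY controls, 9.12, 9.53, 8.54 and 8.61 in XY FOXL2+, and 11.27, 10.91, 10.90 and 10.80 in XX controls. The controls overlapped each other and the XY FOXL2+ arrays lay below both. Nrn1 fell 3.81-fold and 4.06-fold (adjusted p = 0.000182 and 0.00037). Bst2 (tetherin), an interferon-inducible protein that holds viruses at the cell surface, read 12.41, 12.01, 12.96 and 12.87 in XY controls, 10.00, 10.99, 11.12 and 11.27 in XY FOXL2+, and 12.53, 13.58, 13.16 and 13.12 in XX controls. For Bst2, replicate 1 was the lowest and replicates 3 and 4 the nearest to the controls. Bst2 fell 3.28-fold and 4.76-fold (adjusted p = 0.00341 and 0.000984).

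Gprc5a, a retinoic acid-induced orphan receptor, read 8.45, 9.20, 9.60 and 9.39 in XY controls, 6.66, 7.24, 6.36 and 6.22 in XY FOXL2+, and 7.89, 7.90, 7.82 and 7.74 in XX controls. The order was XY, then XX, then XY FOXL2+, with no overlap. Gprc5a fell 5.81-fold and 2.32-fold (adjusted p = 3.03e-05 and 0.0109). Lipg (endothelial lipase) had the same order. It fell 6.28-fold and 1.75-fold (adjusted p = 8.95e-07 and 0.0129), and its XY FOXL2+ arrays read 6.86, 7.51, 6.93 and 6.94 against 7.78 to 8.03 in XX controls.

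Cdon, a co-receptor for hedgehog ligands, varied little within groups. It read 12.79, 12.63, 12.71 and 12.78 in XY controls, 11.61, 11.74, 11.57 and 11.73 in XY FOXL2+, and 12.50, 12.64, 12.37 and 12.49 in XX controls. All XY FOXL2+ arrays were below all controls by at least 0.633. Cdon fell 2.09-fold and 1.79-fold (adjusted p = 7.1e-06 and 0.000188). Ret, the receptor of GDNF-family ligands, fell 1.70-fold and 2.14-fold (adjusted p = 0.0219 and 0.00391), with a gap to the nearest control of only 0.005. Without XY control replicate 3 its adjusted p against XY controls was 0.0652, and Ret and Nupr1 were the 2 of the 30 named genes farthest above or below that lost a pairwise call when 1 array was left out. Sema5b, a transmembrane semaphorin, fell 2.13-fold and 2.28-fold (adjusted p = 0.00977 and 0.00838).

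Hs6st1 and Hs3st3b1 encode sulfotransferases of heparan sulfate, a sulfated sugar chain of the cell surface that holds growth factors. Enzymes of this chain were not among the gene lists, so no share of them is given. Hs6st1, which adds 6-O-sulfate, read 12.90, 12.82, 12.68 and 12.50 in XY controls, 12.19, 11.95, 11.35 and 11.16 in XY FOXL2+, and 12.61, 12.84, 12.63 and 12.57 in XX controls. Its XY FOXL2+ arrays lay below all controls and spread over more than 1 unit. Hs6st1 fell 2.09-fold and 2.0-fold (adjusted p = 0.00494 and 0.00953), and Hs3st3b1, which adds 3-O-sulfate, fell 1.81-fold and 2.35-fold (adjusted p = 0.00911 and 0.00156). Hs3st3a1, a close copy of Hs3st3b1, and Xylt1, which starts the chain, were named after their values were seen. Probes of Hs3st3a1 and Hs3st3b1 may read each other's transcript, which was not checked. Hs3st3a1 fell 1.68-fold and 2.07-fold (adjusted p = 0.00152 and 0.000342), and Xylt1 fell 1.55-fold and 1.82-fold (adjusted p = 0.000624 and 0.000181).

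The remaining genes of the 15 include Aldh1a7, an aldehyde dehydrogenase and close copy of Aldh1a1. Aldh1a7 read 13.60, 13.11, 13.49 and 13.03 in XY controls, 11.71, 11.26, 11.38 and 10.81 in XY FOXL2+, and 12.31, 12.38, 12.27 and 12.25 in XX controls. The 3 groups were separate, with XY FOXL2+ lowest. Aldh1a7 fell 4.05-fold and 2.02-fold (adjusted p = 1.38e-05 and 0.00473). Aldh1a1, whose probes may share transcripts with it, was 2.49-fold lower than in XY controls (adjusted p = 1.33e-05) and 1.17-fold higher than in XX controls (adjusted p = 0.299), and it was not outside the controls. Slc12a7, a potassium-chloride cotransporter, Trim62, of the tripartite motif family, Cst13, a cystatin, and Pmis2 fell 1.89-fold to 2.46-fold against XY controls and 1.75-fold to 2.28-fold against XX controls.

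**Figure D3:**
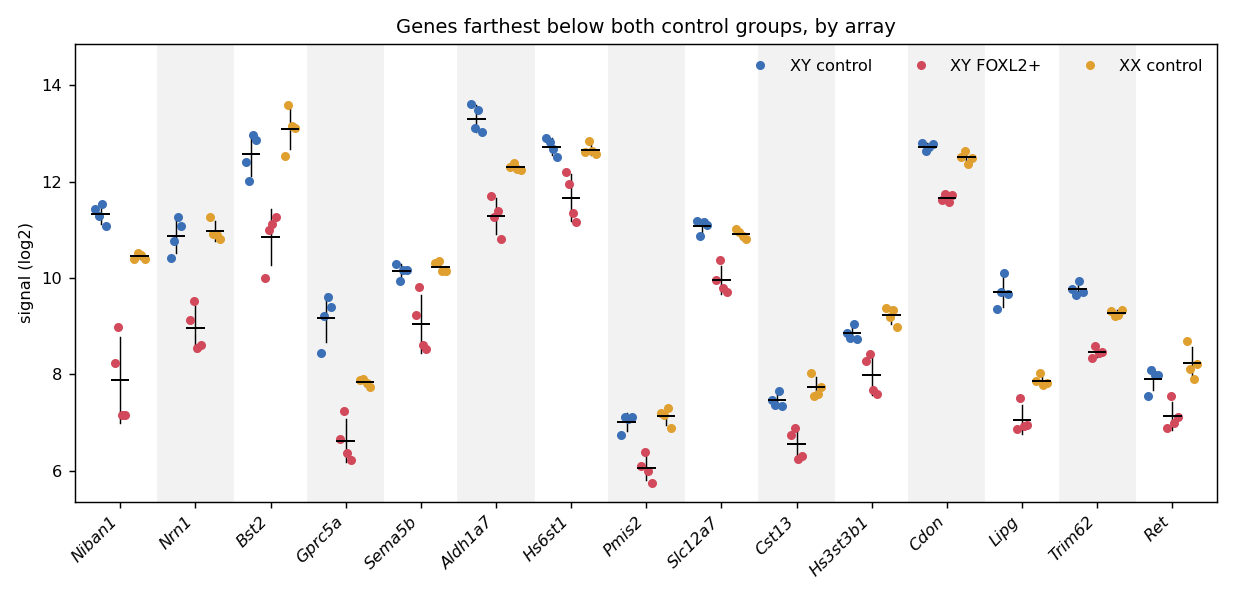
Signal (log2, y axis) on each of the 12 arrays for the 15 named genes farthest below both control groups (x axis, in order of the difference from the nearer control mean). Points are arrays, horizontal bars group means and vertical bars 1 SD (n = 4), and every red XY FOXL2+ point lies below every control point of its gene.

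Within the XY FOXL2+ group, replicates 3 and 4 were often the farthest from the controls in the genes with the largest differences. They both read above replicates 1 and 2 in 11 of the 15 named genes above, in 36.4% of the 338 genes above and in 25.2% of all genes. They both read below replicates 1 and 2 in 9 of the 15 named genes below, in 26.2% of the 282 genes below and in 22.5% of all genes. Foxl2 itself was lowest in replicates 3 and 4, at 7.18 and 6.72. With both replicates left out, 29 of these 30 named genes had an adjusted p below 0.05 against the average of both controls, and Nupr1 did not (adjusted p = 0.0527). The genes were chosen with replicates 1 and 2 outside all controls, so this count was largely set by the choice and lends no support. Over all clusters that fit called 1080 higher and 1890 lower, against 597 and 1050 with all 12 arrays. Over the full sets, replicate 2 was most often the XY FOXL2+ array nearest to the controls, in 156 of the 338 genes above and 102 of the 282 below. There replicate 1, not 3 or 4, was most often the farthest, in 110 of the genes above and 95 of those below.

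Transcription factors of the early gonad were measured as a list of 17 genes, and 1 lay above and 3 below all controls. Of all genes 1.1% lay above and 0.919% below. Nr5a1 (SF1), the nuclear receptor that drives the gonadal and steroidogenic programme and whose sequences drive the Cre, read 13.47, 13.27, 13.44 and 13.36 in XY controls, 11.71, 11.60, 11.79 and 11.73 in XY FOXL2+, and 12.14, 12.11, 12.17 and 12.16 in XX controls. All groups were tight and separate, with XY FOXL2+ the lowest. Nr5a1 fell 3.20-fold against XY controls (limma, adjusted p = 6.4e-08) and 1.35-fold against XX controls (adjusted p = 0.00532).

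Lhx9, a LIM homeobox factor needed for the gonadal ridge, read 11.66, 11.54, 11.54 and 11.57 in XY controls, 11.45, 11.11, 10.92 and 11.05 in XY FOXL2+, and 11.76, 11.93, 11.75 and 11.77 in XX controls. The XY FOXL2+ arrays lay below both, replicate 1 the nearest. Lhx9 fell 1.36-fold and 1.59-fold (adjusted p = 0.0254 and 0.00345). Gata4 lay below all controls by only 0.029 and was not called (difference -0.16, adjusted p = 0.304). Maf, which marks interstitial progenitors, lay above by 0.002 with a difference of 0.63 (adjusted p = 0.0285), and its adjusted p was 0.0844 and 0.0924 without XY FOXL2+ replicate 3 or 4. It was 0.0551 to 0.0584 without XY control replicate 3 or 4 or XX control replicate 2 or 3, and 0.0638 with the replicate number as a block.

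Of 15 measured interstitial progenitor genes, Maf, Dcn and Lum lay above all controls, where 1.1% of all genes did, and none lay below. The list's median difference from both controls was 0.19, against 0.021 over all genes, and 2 of its genes were called lower. The list as a whole lay between the controls. Its mean signal ranged from 10.9 to 11.86 in XY FOXL2+, 11.94 to 12.11 in XY controls and 10.22 to 10.54 in XX controls. Against XY controls 8 of the 15 genes were called lower and 3 higher, and against XX controls 8 were called higher and none lower. Of 12 peritubular myoid and smooth muscle genes, 1 lay below and none above. Myh11, the smooth muscle myosin heavy chain, read 9.0, 9.26, 9.30 and 9.34 in XY controls, 8.32, 7.77, 8.15 and 8.02 in XY FOXL2+, and 8.71, 8.46, 8.45 and 8.60 in XX controls. The XY FOXL2+ arrays lay below both, and Myh11 fell 2.24-fold and 1.41-fold (adjusted p = 8.24e-05 and 0.0359).

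Steroid and cholesterol genes showed how a call against the average can arise without a place outside. Of 19 measured genes of cholesterol synthesis, 17 were called lower against the average of both controls, where 1.62% of all genes were. All 19 were called lower than in XY controls and 1 was called lower than in XX controls. Only Hmgcs1, the synthase that makes HMG-CoA, lay below all controls. Hmgcs1 read 15.26, 15.16, 15.42 and 15.22 in XY controls, 13.53, 13.90, 13.06 and 13.08 in XY FOXL2+, and 14.04, 14.30, 14.04 and 14.05 in XX controls. The groups were separate, with replicate 2 nearest the XX controls. Hmgcs1 fell 3.67-fold and 1.65-fold (adjusted p = 1.33e-05 and 0.0197). Of 14 measured fetal Leydig and steroidogenic genes, 6 were called lower and 1 higher against the average of both controls. Against XY controls 10 were called lower and 2 higher, and against XX controls 2 lower and 3 higher. Star, with a difference of -2.86 from the average (limma, adjusted p = 1.4e-06), was not outside all controls. In this list Nr5a1 lay below and Dkk3, a secreted protein of the Dickkopf family, above, where 0.919% and 1.1% of all genes lay. Dkk3 rose 1.49-fold and 2.16-fold (adjusted p = 0.0248 and 0.000805), with replicate 2, at 8.0, nearest to the XY controls at 7.79 to 7.93.

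In the supporting cell lists, none of 28 measured Sertoli genes lay outside all controls. Of all genes 2.02% did, 1.1% above and 0.919% below. At such a share a list of this size can hold none, so the count sets Sertoli genes apart in no way. Of 23 fetal granulosa genes, 1 lay above, the nuclear receptor Nr2f1 (COUP-TFI), which read 7.79, 7.51, 7.90 and 8.02 in XY FOXL2+ against 7.10 to 7.48 over all controls. Nr2f1 rose 1.39-fold and 1.49-fold (adjusted p = 0.0272 and 0.0123). Against the average of both controls its adjusted p was 0.0158, and 0.0524 and 0.0534 without XY FOXL2+ replicate 3 or 4. Of 19 postnatal granulosa genes and known FOXL2 targets, Ptgs2 lay above by 0.027 and was not called (difference 0.12, adjusted p = 0.296). Genes of the supporting cell lists with large differences lay between the controls or level with one, such as the Sertoli hormone Amh, which read 5.54 to 8.21 in XY FOXL2+, 12.54 ± 0.44 in XY controls (SD, n = 4) and 5.43 to 5.69 in XX controls.

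The promoter windows of Nr2f1, above all controls, and of Slc7a11 and Aldoc, below all controls, are shown because each holds a forkhead core, the kind of sequence that forkhead factors such as FOXL2 bind. The core searched was TGTTTAC, on both strands, in the RefSeq promoter table of GRCm38.p6, from 250 bases before to 50 bases after each start. Capitals mark the match, and each sequence is printed 5′ to 3′ on the strand of its gene. The Nr2f1 stretch is chr13:78196561-78196627 on the minus strand. The Slc7a11 stretch is chr3:50443809-50443863 on the minus strand, and the Aldoc stretch is chr11:78324020-78324086 on the plus strand.
Nr2f1: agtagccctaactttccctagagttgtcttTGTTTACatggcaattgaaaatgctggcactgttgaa
Slc7a11: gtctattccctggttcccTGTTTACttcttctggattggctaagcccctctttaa
Aldoc: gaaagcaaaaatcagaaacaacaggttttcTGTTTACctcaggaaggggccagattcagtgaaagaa

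Slc7a11, the cystine-glutamate exchanger, read 6.51, 6.67, 6.59 and 6.57 in XY controls, 5.71, 5.64, 5.78 and 5.77 in XY FOXL2+, and 6.14, 6.07, 6.18 and 6.08 in XX controls. The 3 groups were separate and XY FOXL2+ was lowest. Slc7a11 fell 1.81-fold and 1.31-fold against XY and XX controls (adjusted p = 4.62e-06 and 0.00379). Aldoc, a glycolytic aldolase, fell 1.69-fold and 1.77-fold (adjusted p = 0.0102 and 0.00881).

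Of the genes outside all controls that passed both pairwise tests, 100 above and 70 below had a promoter window. They had 140 and 91 windows, against 22229 windows for the 18265 measured genes with a window. A gene counted where any of its windows matched, so more windows per gene can raise a share. TGTTTAC was found for 4 of the 100 (4%), for 5 of the 70 (7.14%) and for 3.55% of the 18265 measured genes with a window. GTCAAGG, a core of FOXL2 response elements, was found for 2%, 4.29% and 3.58% in the same order. CAAGGTCA, the SF1 site, was found for 0 of the 100, for 2.86% and for 1.54%, and the last 5 letters of GTCAAGG are the first 5 of CAAGGTCA, so matches to both can overlap. A match describes letters in a window and does not show binding. The genes above with a TGTTTAC match included Nr2f1 and Brinp3, and those below were Abhd4, Aldoc, Cry1, Lyrm7os and Slc7a11. Apart from Nr2f1, these were named after their values were seen.

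Markers of vessels and macrophages were also among the genes above. Of 18 measured endothelial genes, 3 lay above all controls, where 1.1% of all genes did, and none below. The list's mean signal ranged from 8.83 to 8.97 in XY FOXL2+, 8.66 to 8.83 in XY controls and 8.53 to 8.78 in XX controls. Cldn5, a tight junction protein of endothelium, read 9.11, 8.42, 8.45 and 8.54 in XY FOXL2+ against 7.65 to 8.06 over all controls, and it rose 1.66-fold and 1.83-fold (adjusted p = 0.00739 and 0.00362). Tek, the angiopoietin receptor, and Aplnr, the apelin receptor, passed against XX controls (adjusted p = 0.00332 and 0.0158) and not against XY controls (adjusted p = 0.117 and 0.13). Emcn (endomucin), a sialoglycoprotein of endothelium, was called higher against the average of both controls (difference 0.69, adjusted p = 0.0335) without lying outside them. None of the other 14 endothelial genes was called against that average, with differences such as 0.46 for Ramp2 (adjusted p = 0.0534), 0.13 for Cdh5 (adjusted p = 0.583), 0.05 for Pecam1 (adjusted p = 0.823) and -0.22 for Eng (adjusted p = 0.326).

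Of 19 measured macrophage and leukocyte genes, 3 lay above all controls, where 1.1% of all genes did, and none below. The list's mean signal ranged from 6.94 to 7.22 in XY FOXL2+, 6.76 to 7.04 in XY controls and 6.66 to 6.88 in XX controls. Adgre1, the F4/80 antigen, rose 1.30-fold and 1.24-fold (adjusted p = 0.00611 and 0.0225), and C1qb, a chain of complement C1q, rose 1.67-fold and 1.53-fold (adjusted p = 0.0137 and 0.0442). Csf1r, the receptor for macrophage colony-stimulating factor, passed against XY controls (adjusted p = 0.0268) and not XX controls (adjusted p = 0.0815). Ptprc, the pan-leukocyte antigen, differed from both controls by 0.25 (adjusted p = 0.15). The part of vessels and macrophages in the genes above was not tested. Several of these calls ended when a single array was left out. Against the average of both controls, the adjusted p of C1qb was 0.0503, 0.0706 and 0.0744 without XX control replicate 3 or XY FOXL2+ replicates 3 or 4, and that of Tek was 0.0522 and 0.0524 without XY FOXL2+ replicates 3 or 4. That of Aplnr, 0.0402 in full, and that of Csf1r, 0.0438 in full, reached 0.129 and 0.105 when single arrays were left out, 0.0888 and 0.0982 with the replicate number as a block, and 0.0508 and 0.0764 with each array centred on its median.

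Surface epithelium and retinoic acid lists each held 1 gene above all controls, where 1.1% of all genes lay. Gpm6a, a membrane glycoprotein of neurons that also marks the coelomic epithelium, read 8.92, 8.93, 8.60 and 8.94 in XY controls, 9.99, 10.20, 9.76 and 9.66 in XY FOXL2+, and 8.15, 8.24, 8.01 and 8.16 in XX controls. All groups were separate, and Gpm6a rose 2.08-fold and 3.39-fold (adjusted p = 0.000189 and 1.73e-05). No other gene of its list was called higher against the average of both controls. Of 14 measured surface epithelium genes, 1 was called higher and 2 lower against that average, where 1.09% and 1.62% of all genes were. The list's median difference was -0.25. Against XX controls 7 were called lower and 1 higher, where 6.52% of all genes were called in either direction. Rarb, a retinoic acid receptor whose gene is itself induced by retinoic acid, read 6.92, 7.12, 6.90 and 7.0 in XY controls, 7.92, 7.93, 8.07 and 7.98 in XY FOXL2+, and 7.32, 7.51, 7.34 and 7.40 in XX controls. The XY FOXL2+ arrays were tight and highest, and Rarb rose 1.98-fold and 1.5-fold (adjusted p = 7.12e-06 and 0.00114). Of 14 measured retinoic acid genes, 1 was called higher and 2 lower against the average of both controls, beside the same 1.09% and 1.62% of all genes. Their median difference was -0.02. The 2 lower genes were Adh1 (difference -3.21, adjusted p = 1.33e-07) and Aldh1a1 (difference -0.54, adjusted p = 0.0106), neither outside all controls. Retinoic acid signalling itself was not tested. In the 18 measured BMP and TGF-beta response genes, Acvr1c, a type I receptor, lay above by 0.054 and was not called (difference 0.19, adjusted p = 0.129).

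The mesonephric and rete list had 16 measured genes, with Ret below and none above. The interferon response list had 16, with Bst2 below and none above. No gene lay outside all controls in the lists of general germ cell (16 measured), meiotic germ cell (25), male germ cell (12), erythroid (10), adrenal cortex (7), neural crest, glia and neuron (12), basement membrane (18) and WNT response genes (10). The same held for immediate early (18), heat shock and unfolded protein (18), mitotic cell cycle (17), apoptosis and p53 response (13), Y-linked (7), ribosomal protein (8) and X inactivation and escape genes (6). Of all genes 2.02% lay outside, and at that share lists of these sizes can hold none. Against the average of both controls, 1.09% of all genes were called higher and 1.62% lower. In the basement membrane list, 1 gene was called higher and 2 lower against that average. The adrenal cortex list had 4 of 7 genes called lower, the meiotic list 3 of 25 higher and the Y-linked list 4 of 7 higher. Of the 25 meiotic genes, 20 were called higher than in XY controls and 2 lower than in XX controls. Over all genes these 2 tests called 8.09% and 6.52% in either direction.

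Some pairwise calls of the listed genes and of Kcnip3 also rested on single arrays. Against XY controls the adjusted p reached 0.0509 for C1qb, 0.0793 for Maf, 0.0817 for Nr2f1, 0.0859 for Csf1r and 0.1 for Dcn without XY control replicate 3. It reached 0.0699 for Dkk3 without XY control replicate 4, and 0.0762 for Lhx9 and 0.0778 for Kcnip3 without XY control replicate 1. Against XX controls it reached 0.0687 for Hmgcs1 and 0.122 for C1qb without XX control replicate 2, and 0.0971 for Myh11 without XX control replicate 1. Without XX control replicate 3 it reached 0.0577 for Aplnr, 0.0785 for Adgre1 and 0.121 for Maf.

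**Figure D4:**
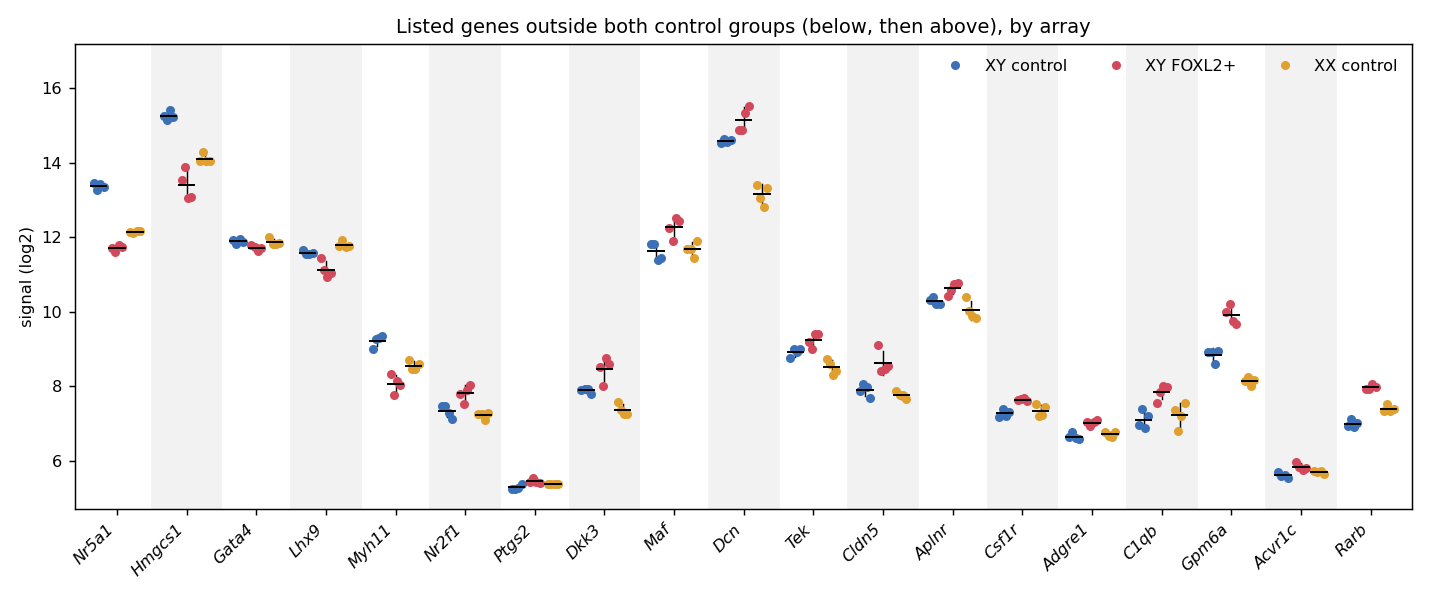
Signal (log2, y axis) on each of the 12 arrays for listed genes outside both control groups and not among the 30 shown by size (x axis, first the genes below, then those above). Points are arrays, horizontal bars group means and vertical bars 1 SD (n = 4). Nr5a1, Gpm6a and Rarb show clear gaps and Hmgcs1 a smaller one. Gata4, Ptgs2, Nr2f1, Dkk3, Maf and Acvr1c are among those at the edge of the controls.

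Families set by the start of the gene symbol set a background of weakly expressed genes. Of 1229 olfactory receptor genes, with a median signal of 4.83, 4 were above and 2 below all controls (0.488%), and of 493 vomeronasal receptor genes 2 were above (0.406%). None of these passed both pairwise tests. None of 261 genes with symbols starting with Rpl or Rps and a digit, which include ribosomal protein genes, lay outside. The same held for 101 genes with symbols starting with Krt, which include keratins. Over all genes, with a median signal of 6.79, 2.02% lay outside. The families that follow read higher than the receptor families, which are thus no like background for them. Among 372 Slc genes, the solute carriers (median signal 6.92), 8 were above and 6 below (3.76%). Among 93 Kcn genes, mostly potassium channel subunits (median signal 6.43), 2 were above and 2 below (4.3%). Of 43 Col genes, mostly collagens (median signal 7.3), 4 were above and none below (9.3%). These were Col2a1, Col9a1, Col26a1 and Col28a1, of which 1 passed both pairwise tests, and they were named after their values were seen. Besides Kcnt2, Kcnip3 was above, 1.61-fold and 1.96-fold (adjusted p = 0.0276 and 0.00569). Kcnh1, a voltage-gated potassium channel, was below. It read 10.61, 10.27, 10.79 and 10.47 in XY controls, 7.78, 7.86, 7.97 and 8.10 in XY FOXL2+, and 8.82, 8.68, 8.63 and 8.62 in XX controls. The groups were separate, and Kcnh1 fell 6.09-fold and 1.69-fold (adjusted p = 5.72e-08 and 0.00237). Kcnip3 and Kcnh1 were named after their values were seen.

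The genes around the targeted Rosa26 locus were looked at as well, since only XY FOXL2+ embryos carried the modified allele. Of the 50 genes on each side in the RefSeq order, 61 were measured, none was above all controls and 1 was below. This was Tada3, a subunit of histone acetyltransferase complexes, which was not called (difference -0.16, adjusted p = 0.248). The share outside was 1.64%, against 2.02% of all genes.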

How the data were processed

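RNA of 12 samples was read with 1-colour Mouse Transcriptome Arrays 1.0 (Affymetrix) after amplification and biotin labelling of 100 ng of total RNA, per the labels' protocols. The deposited values were taken as log2 signals, since they run from 2.60 to 19.49. Neither their base nor how the authors corrected and normalized them is stated in the labels or headers, and another base would rescale every fold and leave the tests as they are. The deposited table carries no detection calls, background control probe sets had medians of 3.99 to 4.17, and folds of weak genes are compressed.

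The table holds 72688 entries. Without its 6732 control probe sets, 65956 transcript clusters remained and all were tested. The platform annotation, with 1152 symbols updated through the RefSeq table, gave 1 symbol to 31258 clusters, several to 1492 (unnamed) and none to 33206 (unnamed here). A gene with several clusters (441 genes) is represented by the one with the highest mean. Which Foxl2 transcript, endogenous or from the Rosa26 allele, its cluster reads is not stated.

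The tests used limma 3.58.1 (R 4.3.3), with 1 fit over all 12 arrays (9 residual degrees of freedom) and eBayes with an intensity trend. They were two-sided, with Benjamini-Hochberg adjustment over the 65956 clusters and a threshold of 0.05. The number of arrays limits the precision. Per the labels, each array is a separate biological replicate. The labels name no litter or batch.

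Named genes are the 15 called genes farthest above and the 15 farthest below both controls by the difference from the nearer control mean, members of the 30 gene lists outside all controls, the largest differences of a list described, the genes nearest the edge of the rule, and label checks. Other names are marked as chosen after their values were seen. The members, lists and rules were chosen with earlier results of these data known. Alternatives were quantile normalization, median centring, a signal filter at 6.224 (the median), no trend, array weights, the replicate number as a block, a gap of at least 0.2, and each array left out in turn. Leaving out XY FOXL2+ replicates 3 and 4 together was added after seeing the data. Results of 1 region are not reported here.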

Additional observations from a re-analysis of the deposited data

Results flagged for a closer look

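In 207 groups of 4 arrays checked for the genes named, 11 had 1 array far from the others by Dixon's criterion, and chance flags about 1 in 20 groups. In XY FOXL2+, replicate 1 was highest for Cldn5 at 9.11 (others 8.42 to 8.54), and replicate 2 was highest for Lipg at 7.51 (others 6.86 to 6.94) and Xylt1 at 8.79 (others 8.56 to 8.57). In XX controls, replicate 2 was highest for Hmgcs1 at 14.30 (others 14.04 to 14.05), Lhx9 at 11.93 (others 11.75 to 11.77) and Cry1 at 11.14 (others 11.02 to 11.04). Replicate 1 of the same group was highest for Grik2 at 6.60 (others 6.45 to 6.47), and replicate 4 was lowest for Acvr1c at 5.64 (others 5.70 to 5.71). In XY controls, replicate 1 was lowest for Pmis2 at 6.74 (others 7.08 to 7.12), replicate 3 was lowest for Gpm6a at 8.60 (others 8.92 to 8.94), and replicate 2 was highest for Kera at 5.98 (others 5.38 to 5.46).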

How the results depend on the processing

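Over all clusters, 597 were called higher and 1050 lower than the average of both controls, 578 lay above and 519 below all controls, and 253 and 223 passed both pairwise tests upward and downward. Quantile normalization, median centring and no intensity trend moved none of these counts by over 1.5 times. The signal filter left 332 clusters above. A gap of at least 0.2 left 110 above and 77 below. Array weights gave 1115 called higher and 504 passing both tests upward, and raised the share of higher calls from 36.2% to 48.5%. It was 47% without XY FOXL2+ replicate 1. Without 1 array in turn, the called clusters ranged from 377 to 960 higher and 652 to 1271 lower, those outside from 659 to 1385 above and 556 to 967 below, and those passing both tests from 160 to 403 upward and 88 to 287 downward. The lowest of the called and tested counts came without XX control replicate 2, 3 or 4 and the highest without XY FOXL2+ replicate 2, and leaving out XX control replicate 1, XY control replicate 1, 3 or 4, or XY FOXL2+ replicate 1, 3 or 4 also moved at least 1 count by over 1.5 times. Counts outside all controls can only grow when an array is left out. Without XY FOXL2+ replicates 3 and 4, 1080 were called higher and 1890 lower, and 2635 lay above and 2826 below. The replicate numbers did not pair the samples, as deviations of same-numbered arrays correlated between -0.091 and 0.179. The fit with the replicate number as a block called 493 higher and 983 lower and passed 214 and 223 in both tests. Of 480 values of 69 named genes under other settings, 459 stayed on their side of the threshold, 19 no longer passed it, 2 newly passed it and none changed sign. Of 828 without 1 array, 53 no longer passed, 2 newly passed and none changed sign.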
